A study of Mus musculus with 30 samples.

Results

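In microglia with intact Mir137, 505 sites were listed as specific to this genotype for RNA polymerase II (Pol II) or for its form phosphorylated at serine 5 (Ser5P). They came from 394 Pol II regions and 127 Ser5P regions of the cWT lists, with overlapping regions of both lists merged into 1 site. Of the sites, 378 came from Pol II alone, 111 from Ser5P alone and 16 from both. The cKO lists of the same antibodies held 4647 Pol II and 6163 Ser5P regions, which merged into 8352 sites, and the 10 lists of the study held 22399 regions in all.

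The cells were microglia, the brain's own macrophages, sorted from C57BL/6J mice labelled as 8 weeks old. The assay was CUT&Tag, where a transposase guided by an antibody cuts the nearby DNA. The cWT mice were Mir137+/+;Tmem119-CreERT2, and the cKO mice were Mir137loxP/loxP;Tmem119-CreERT2. Both genotypes therefore carried the Cre that tamoxifen activates, driven from the microglial gene Tmem119, and both had tamoxifen on 7 consecutive days, when 7 to 8 weeks old. The labels give 3 replicates per genotype and antibody and about 100000 cells per genotype, while the series text mentions 4 mice, and pooling of animals is not described. The Pol II, Ser5P and H3K27ac antibodies stand under 1 shared catalogue number in the protocol, and the series is typed as ChIP-seq.

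Pol II transcribes protein-coding genes and many microRNA genes. Its largest subunit ends in a tail of repeated heptads, and serine 5 of the repeats is phosphorylated by TFIIH as transcription starts, so Ser5P is found mainly near gene starts, where the enzyme often pauses before it elongates. Total Pol II antibodies also read the enzyme along gene bodies and at enhancers. Pu.1 is an ETS factor needed for the identity of macrophages and microglia, H3K27ac marks active enhancers and promoters, and H3K4me3 marks active promoters. Mir137 encodes miR-137, whose seed directs it to complementary RNA.

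Mature miR-137, the deleted microRNA, is shown first, followed by the promoters of 5 genes that had a cWT-specific site at the start and stand for the gene groups described below. The miRNA is at chr3:118433901-118433923 on the plus strand, and its seed, bases 2 to 8, is in capitals. The promoters run from 250 bases before to 50 after an annotated start, and capitals there mark motif matches on either strand. All sequences and positions are RefSeq GRCm38.p6, the assembly of the mm10 coordinates in the lists.
mmu-miR-137-3p: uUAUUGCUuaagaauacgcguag
Jun, chr4:95052173-95052472, minus strand: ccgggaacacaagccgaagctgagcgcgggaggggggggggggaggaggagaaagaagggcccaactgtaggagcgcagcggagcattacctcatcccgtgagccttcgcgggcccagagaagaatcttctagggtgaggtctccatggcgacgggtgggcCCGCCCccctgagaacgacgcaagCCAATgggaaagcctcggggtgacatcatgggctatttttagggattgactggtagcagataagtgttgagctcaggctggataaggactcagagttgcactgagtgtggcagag
Hspa1a, chr17:34972107-34972406, minus strand: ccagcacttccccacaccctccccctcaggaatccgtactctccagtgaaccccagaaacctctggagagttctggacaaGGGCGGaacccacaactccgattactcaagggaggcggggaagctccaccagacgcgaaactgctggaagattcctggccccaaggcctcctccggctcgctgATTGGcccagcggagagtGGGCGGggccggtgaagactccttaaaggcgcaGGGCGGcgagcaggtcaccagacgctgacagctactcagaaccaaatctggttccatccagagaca
Klf6, chr13:5861239-5861538, plus strand: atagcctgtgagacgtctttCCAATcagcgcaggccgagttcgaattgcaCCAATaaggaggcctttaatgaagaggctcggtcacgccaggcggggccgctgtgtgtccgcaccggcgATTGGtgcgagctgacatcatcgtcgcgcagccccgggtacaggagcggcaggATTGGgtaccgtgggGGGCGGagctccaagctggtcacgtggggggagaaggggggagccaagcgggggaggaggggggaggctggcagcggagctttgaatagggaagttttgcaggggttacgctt
Nlrp3, chr11:59541319-59541618, plus strand: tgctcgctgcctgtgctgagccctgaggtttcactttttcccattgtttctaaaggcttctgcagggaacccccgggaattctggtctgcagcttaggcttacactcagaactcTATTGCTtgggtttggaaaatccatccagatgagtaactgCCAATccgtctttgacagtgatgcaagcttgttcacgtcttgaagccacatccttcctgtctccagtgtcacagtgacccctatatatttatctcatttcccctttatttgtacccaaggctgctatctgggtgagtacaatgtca
Ltc4s, chr11:50238483-50238782, minus strand: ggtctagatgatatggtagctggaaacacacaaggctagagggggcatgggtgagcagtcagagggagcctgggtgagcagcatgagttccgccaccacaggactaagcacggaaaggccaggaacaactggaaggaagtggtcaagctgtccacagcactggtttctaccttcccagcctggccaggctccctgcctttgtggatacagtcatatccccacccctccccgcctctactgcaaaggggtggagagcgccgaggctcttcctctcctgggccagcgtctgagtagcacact
Positions of matches are counted from the start, with negative values before it. Jun, the AP-1 subunit, had a CCAAT box (CCAAT) at -65 and a GC box (GGGCGG) at -89. Hspa1a, a heat-shock chaperone, had GC boxes at -170, -49 and -16 and a CCAAT box at -67. Klf6, a zinc-finger factor, had CCAAT boxes at -230, -200, -131 and -78 and a GC box at -63. Nlrp3, the sensor of the NLRP3 inflammasome, had a CCAAT box at -96 and, at -136 on the minus strand, the letters AGCAATA, which complement the miR-137 seed. Ltc4s, which encodes leukotriene C4 synthase, held none of the motifs searched.

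Across the members, 146 coding genes of the promoter table had a cWT-specific site over this 300-base window. A GC box was present in 112 of them, 76.7% (95% exact Clopper-Pearson interval 69.0 to 83.3%), against 72.8% of 1663 promoters under cKO Pol II regions, 74.3% of 2290 under cKO Ser5P regions and 45.9% of all 17492 coding genes with a promoter. A CCAAT box was present in 39.7% of the 146, against 39.0% of all. A TATA box (TATAAA) was present in 6 of the 146, against 13.3% of all. The Pu.1 motif (GAGGAAGT) was present in 2.74%, against 3.21% of all, and the seed complement in 1.37%, against 1.70%. The cyclic AMP element (TGACGTCA) was in 4.79%, against 2.22% of all, 3.85% under cKO Pol II and 4.02% under cKO Ser5P regions. The AP-1 motif (TGANTCA) was in 2.74%, against 7.05% of all, 3.25% under cKO Pol II and 3.80% under cKO Ser5P regions. By antibody, the AP-1 motif was in 0 of 102 promoters under cWT Pol II regions and 4 of 46 under cWT Ser5P regions. A C/EBP motif (TTGCGCAA) was in 1 of the 146, 0.685%, against 0.223% of all. Its share was 0.301% under cKO Pol II and 0.262% under cKO Ser5P regions. The interferon-stimulated response element was in 1.37%, against 3.42% of all, 1.86% under cKO Pol II and 2.27% under cKO Ser5P regions. All were searched on both strands, the CCAAT letters also lie in some longer motifs, and the shares were not tested. The median GC content of the 146 windows was 63.2%, against 56.3% over all coding genes. It was 63.7% for promoters under cKO Pol II regions and 63.3% for those under cKO Ser5P regions. A link between the GC box share and base composition was not tested.

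The sites were chosen by their place in the authors' genotype-specific lists, which were made from the polymerase signal by steps that are not stated. The deposited values come from the same lists and are given as a description with no test. The authors' signal per region, on an unstated scale, had a median of 10.02 over the cWT Pol II regions and 9.88 over the cWT Ser5P regions. The deposited p, for which no null hypothesis is stated, was under 0.05 for 2 of 394 Pol II regions and 9 of 127 Ser5P regions. An adjusted p under 0.05 was given for none of the Pol II regions and for 1 Ser5P region. The sites were short, with a median width of 312 bp and a range of 154 to 1004 bp. How the region names were numbered is not stated. If the numbers count regions before selection, at least 5807 cWT Pol II and 3549 cWT Ser5P regions existed then. At most 6.78% and 3.58% of these were listed. On the same reading, the cKO lists held at most 47.0% of at least 9896 Pol II regions and 65.6% of at least 9393 Ser5P regions.

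The Ser5P region with an adjusted p under 0.05 lay in Lars2, which encodes the mitochondrial leucyl-tRNA synthetase, at chr9:123461794-123462240. Its signal was 43.8, the top of its list, with a deposited p of 0.000201 and an adjusted p of 0.0265. It also overlapped a region of the cWT H3K27ac list and a region of the cWT Pu.1 list, so 3 antibodies were listed for cWT at this place. No repeat or blacklist annotation was used here, so neither this site nor any other was screened for such sequence. The other 8 Ser5P regions with a deposited p under 0.05 were in the Aida span nearest an end of Brox, near Dpy19l2, Fam171a1, 1700008P02Rik, Bmpr1b and Arid1b, in Srsf6 and at the start of Jun. Their signals ran from 11.2 at Jun to 37.6 near Dpy19l2. Of these 8, the regions near Fam171a1, 1700008P02Rik and Arid1b were 63903, 499312 and 367953 bp from the nearest gene end, while the Jun region was centred 2 bp from it.

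Among Pol II regions the smallest deposited p, 0.000542, belonged to the same place in the Aida span (chr1:183299135-183299575, signal 26.7), 2057 bp from the nearest gene end, that of Brox, which encodes a partner of the ESCRT membrane-remodelling complexes. The Ser5P region there had a signal of 28.0 and a p of 0.000877, and a cKO H3K27ac region overlapped both. The Pol II region of highest signal, 30.1, was in Ankar at chr1:72696235-72696565 (deposited value of p 0.0157) and overlapped a cWT H3K4me3 region. Regions 14697 bp from Kcnd2, a potassium channel gene, and 17370 bp from Csf2ra, a subunit of the GM-CSF receptor, followed with signals of 26.0 and 24.2. A pair of regions beside an end of Fmc1 (chr6:38534178-38534481 and chr6:38534482-38534846) abutted and had the same signal of 23.5, with deposited p of 0.992 and 0.952. High signal in the list was therefore not always paired with a small p.

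**Figure D1:**
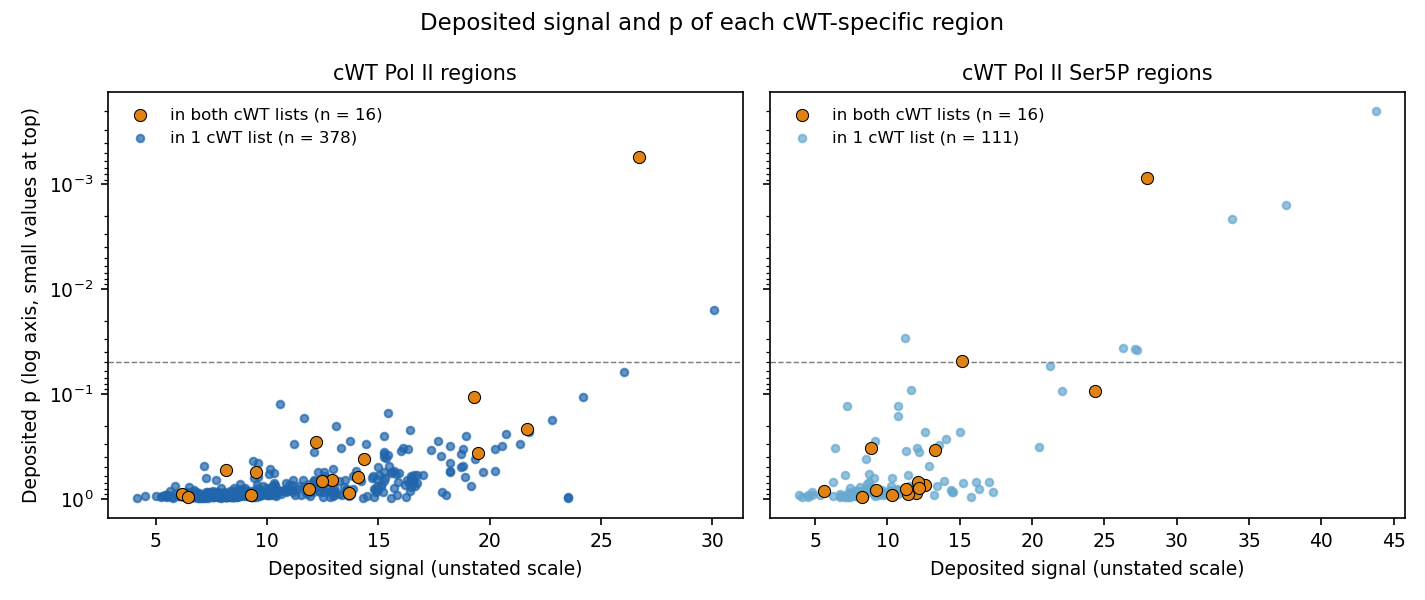
Each point is 1 cWT-specific region, with the authors' signal on the x axis (unstated scale) and the deposited p on a log y axis with small values at the top. Orange points are the 16 sites found in both cWT lists, and the dashed line at 0.05 has 2 of 394 Pol II regions and 9 of 127 Ser5P regions above it.

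Both cWT lists shared 16 sites, which is 4.06% of the cWT Pol II regions and 12.6% of the cWT Ser5P regions. By comparison, 2380 of the 4647 cKO Pol II regions, 51.2%, overlapped a cKO Ser5P region. Of the 16, 4 overlapped the 2 kb window at a coding gene end and 13 were inside a coding gene span. Those inside genes were in Aida, Lyst (a lysosomal trafficking regulator), Tmem267, Srsf6 (a splicing factor), Ptpn1 (a tyrosine phosphatase), Tsc22d2, Alpk1 (an innate immune kinase), Wasf2 (an actin regulator), Fras1, Muc3, Myo16, Ncapd3 (a condensin subunit) and Mid1. The other 3 were nearest Grhl2, Podxl and Gm52481. The signals of the pair were close at some sites, with 21.7 for Pol II and 24.4 for Ser5P near Podxl, and unequal at others, with 6.18 and 11.96 in Tsc22d2. Signals of separate lists have no common scale, so these values rank a site only within its list. The site 146 bp from an end of Ncapd3 was the only member of the 16 over an annotated promoter, which is shared by Ncapd3 and Vps26b.

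Ser5P regions of the cKO list lay over many of the cWT-specific Pol II regions. Of 394 cWT Pol II regions, 191 (48.5%, 95% exact interval 43.4 to 53.5%) overlapped a cKO Ser5P region, against 51.2% (49.8 to 52.7%) of the cKO Pol II regions. The overlaps were nearly complete: over 196 overlapping pairs the median covered 90.3% of the cWT Pol II region, and 175 pairs covered at least 50%. Ltc4s shows the pattern at its start, with the cWT Pol II region at chr11:50238314-50238800 and the cKO Ser5P region at chr11:50238338-50238887. So do Aida, Npc1 (a lysosomal cholesterol transporter), Nop2 (a nucleolar methyltransferase) and Dkc1 (dyskerin), at each of which the site was within 2 kb of a gene end. In the reverse combination, 18 of 127 cWT Ser5P regions (14.2%, 8.62 to 21.5%) overlapped a cKO Pol II region, against 38.8% (37.6 to 40.1%) of cKO Ser5P regions. These shares describe lists and were not tested.

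For the same antibody, the cWT and cKO regions overlapped only at their edges, which the selection of genotype-specific regions may itself fix. A cKO Pol II region met 30 of the 394 cWT Pol II regions (7.61%), and no such overlap covered more than 26.2% of the cWT region or 29.9% of the cKO region. For Ser5P, 13 of 127 cWT regions met a cKO Ser5P region, with at most 25.3% of the cWT region and 10.8% of the cKO region covered. Counting these overlaps, a cKO region of the same antibody lay within 1 kb of 63 cWT Pol II regions (16.0%, 12.5 to 20.0%) and of 40 cWT Ser5P regions (31.5%, 23.5 to 40.3%). Without the overlaps the median gap was 108 bp over 33 Pol II regions and 42 bp over 27 Ser5P regions. At these places each genotype had its own listed region within a single locus. Of the cWT Pol II regions that were also within 2 kb of a start, 14 were downstream of the cKO region and 19 upstream. For Ser5P, 11 were downstream and 12 upstream. The counts are of regions, so a pair of abutting regions at Fmc1 was counted separately. Stk40 and Iqcn for Pol II and Fem1b for Ser5P had cKO regions on both sides and were counted in 1 direction.

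**Figure D2:**
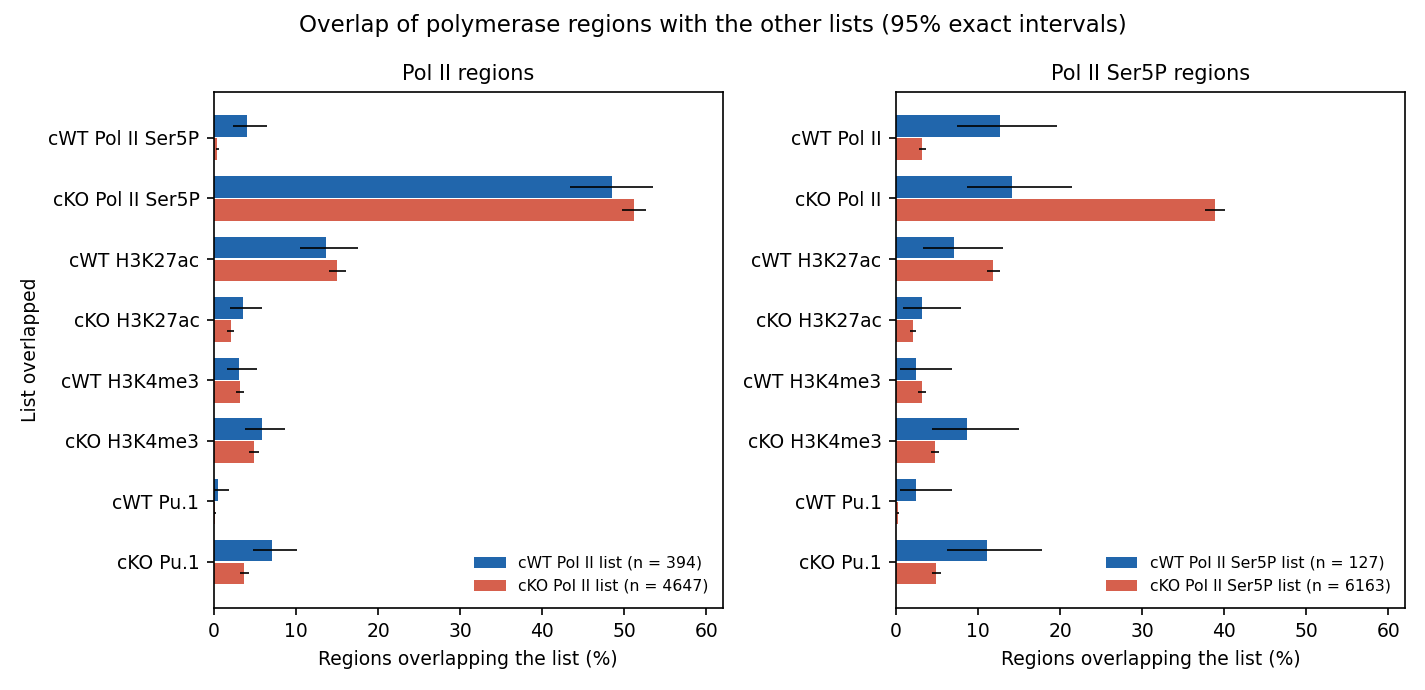
Bars give the share of cWT and of cKO regions of each antibody (x axis, %) that overlapped a region of each other list (y axis), with 95% exact Clopper-Pearson intervals. The cKO Ser5P list took in 48.5% of cWT Pol II regions and 51.2% of cKO Pol II regions, while the cKO Pol II list took in 14.2% of cWT Ser5P regions and 38.8% of cKO Ser5P regions.

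Jun had 2 cWT-specific Ser5P sites that flanked a cKO Ser5P region. The promoter site, at chr4:95051771-95052677, ran from 455 bp before to 451 bp after the start and had a signal of 11.2 and a deposited p of 0.0291. The other, at chr4:95048896-95049661, covered the 3' end of the gene with a signal of 7.76 and a p of 0.837. Between them lay the cKO Ser5P region, at chr4:95049493-95051658, from 564 to 2729 bp after the start, with 112 bp between it and the promoter site and an overlap with the 3' site. A cKO H3K4me3 region overlapped the upstream edge of the promoter site. The long noncoding gene Junos overlaps the promoter site, and reads of the pair cannot be told apart here. Hspa1a had a Ser5P site from 355 bp before to 505 bp after its start (chr17:34971651-34972511, signal 7.20), and none of the other 9 lists held a region within 4 kb of that start. The promoter window of Hspa1l, a neighbouring heat-shock gene, overlapped the same site, and Hspa1a has a near-identical copy, Hspa1b, so its reads are uncertain.

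Nlrp3 had a cWT Pol II region from 46 bp before to 309 bp after its start, at chr11:59541523-59541878, with a signal of 15.5. Regions of the cKO Ser5P list and of the cKO Pu.1 list overlapped it. Further cKO regions, of Pol II, Ser5P and Pu.1, lay between 668 and 1384 bp after the start, where no cWT-specific region was listed. At Ltc4s the cWT Pol II region spanned 268 bp before to 218 bp after the start, with a signal of 5.24, and a cWT H3K4me3 region (chr11:50237823-50238492, signal 25.9) overlapped it. Klf6 had a cWT Ser5P region from 34 bp before to 188 bp after its start, with a signal of 9.15, and a cKO H3K4me3 region began 1896 bp after the start.

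**Figure D3:**
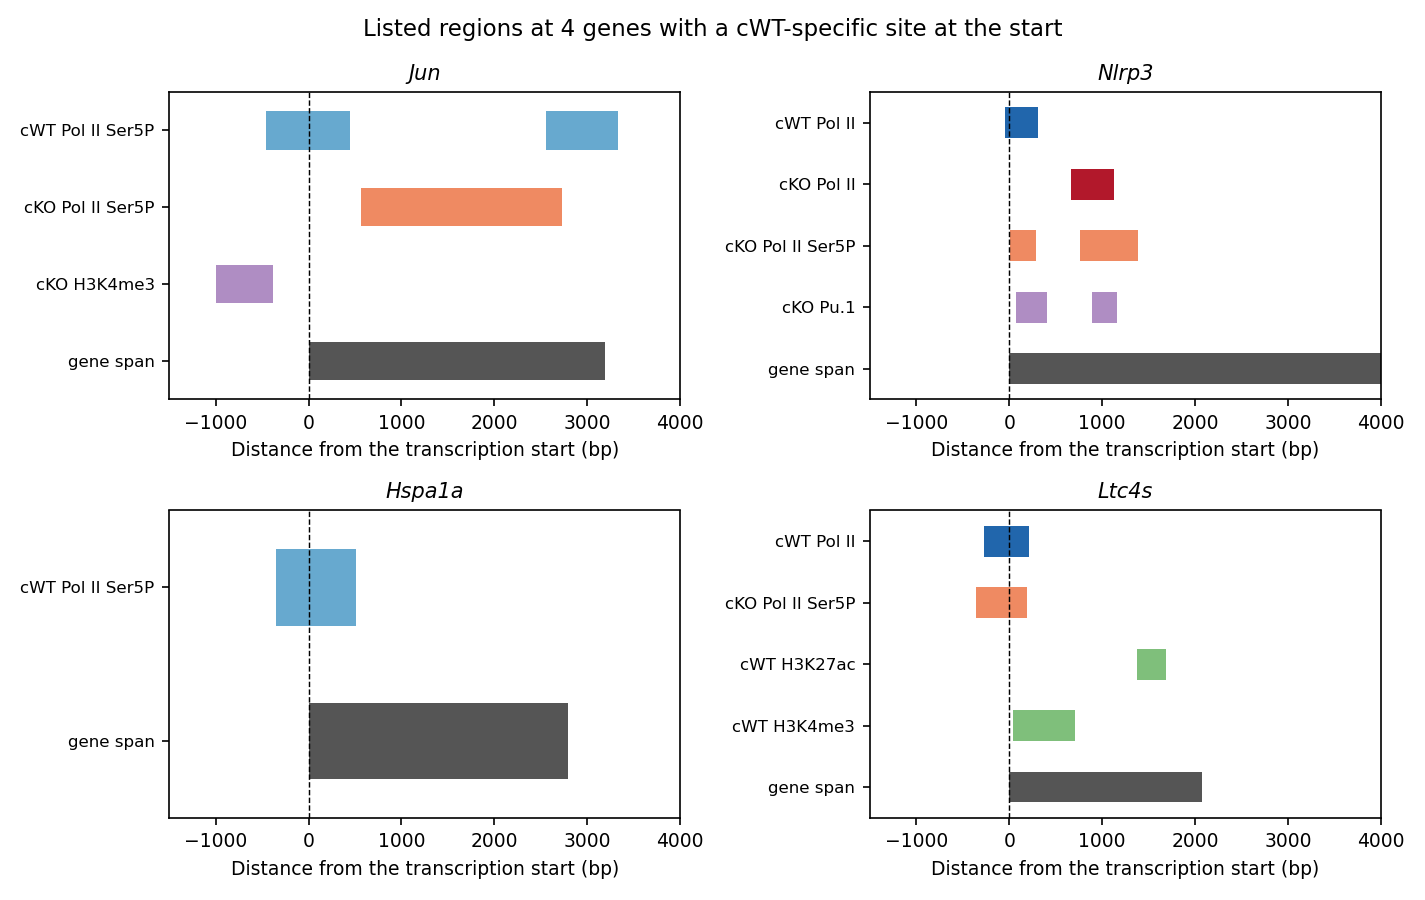
Regions of all lists within 4 kb of the start of Jun, Nlrp3, Hspa1a and Ltc4s, with distance from the start on the x axis in bp and a row for each list that held a region there. At Jun the cWT Ser5P regions flank the cKO Ser5P region, and at Nlrp3 and Ltc4s the cWT Pol II region lies over a cKO Ser5P region.

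In position, cWT-specific Pol II regions were less often at gene ends than cKO-specific ones and more often at Pu.1 regions. Of the cWT Pol II regions 42.4% (95% exact interval 37.5 to 47.4%) overlapped the 2 kb on either side of a coding gene end, against 51.1% (49.7 to 52.6%) of the cKO Pol II regions (two-sided Fisher's exact test, adjusted p = 0.0059 by Benjamini-Hochberg over 14 comparisons). For Ser5P the shares were 52.8% in cWT and 54.4% in cKO (exact test, adjusted p = 0.916). Regions are not replicates and 1 list stands for each genotype, so these p-values describe lists and say nothing of the spread between mice. The Pol II difference missed the threshold when regions under 300 bp were left out (46.0% in cWT against 51.7% in cKO, exact test, adjusted p = 0.291). It also did when 4 windows chosen for their many cWT sites were left out (44.4% in cWT against 51.3% in cKO, exact test, adjusted p = 0.0595).

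A Pu.1 region of either genotype overlapped 7.36% of the cWT Pol II regions, against 3.77% of the cKO Pol II regions, and 12.6% of the cWT Ser5P regions, against 5.03% of the cKO Ser5P regions (Fisher's exact test, adjusted p = 0.0059 for each). The differences of 3.59 and 7.57 percentage points kept an adjusted p under 0.05 in each of the alternatives run. In all, 42 sites overlapped a Pu.1 region, 39 of them a region of the cKO Pu.1 list and 4 of the cWT Pu.1 list, with Muc3 in both. The cKO Pu.1 list holds 1017 regions and the cWT Pu.1 list 44, so as a share of those lists the cWT Pol II regions met 2.85% and 4.55%, and the cWT Ser5P regions 1.38% and 6.82%. A cKO Pol II or Ser5P region also overlapped 20 of the 42 sites. Of the 42, 13 overlapped the 2 kb window at a coding gene end. Others were in Cnga3, Cfap77 and Myo16, or 340039 and 383880 bp from an end of Lingo2 and Hnf4g. The sites named next were picked after their values were seen and do not stand for the rest. Pol II sites were nearest Tyrobp, the DAP12 signalling adaptor (chr7:30394238-30394809, 19258 bp away), Cd33, a sialic acid receptor (chr7:43544316-43544754, 7111 bp away), and Lair1, an inhibitory receptor (chr7:4082503-4082972, 9171 bp away). Further Pol II sites were in Tab2 and Arrb2, and Ser5P sites were in Itgad, an integrin subunit, and at the start of Selenop, which encodes a selenium carrier. The Selenop site (chr15:3270694-3270991, signal 13.6) also overlapped cWT regions of H3K27ac and H3K4me3.

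H3K27ac and H3K4me3 gave no difference between genotypes past the threshold. An H3K27ac region overlapped 17.3% of cWT Pol II regions and 16.8% of cKO Pol II regions (exact test, adjusted p = 0.972), and 9.45% of cWT Ser5P regions and 13.7% of cKO Ser5P regions (adjusted p = 0.298). An H3K4me3 region overlapped 8.88% of cWT and 7.81% of cKO Pol II regions (exact test, adjusted p = 0.611), and 11.02% of cWT and 7.56% of cKO Ser5P regions (adjusted p = 0.298). The midpoint lay in a coding gene span for 63.7% of cWT and 67.1% of cKO Pol II regions (exact test, adjusted p = 0.298) and for 68.5% of cWT and 68.2% of cKO Ser5P regions (adjusted p = 1). These tests do not show that the lists are alike.

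**Figure D4:**
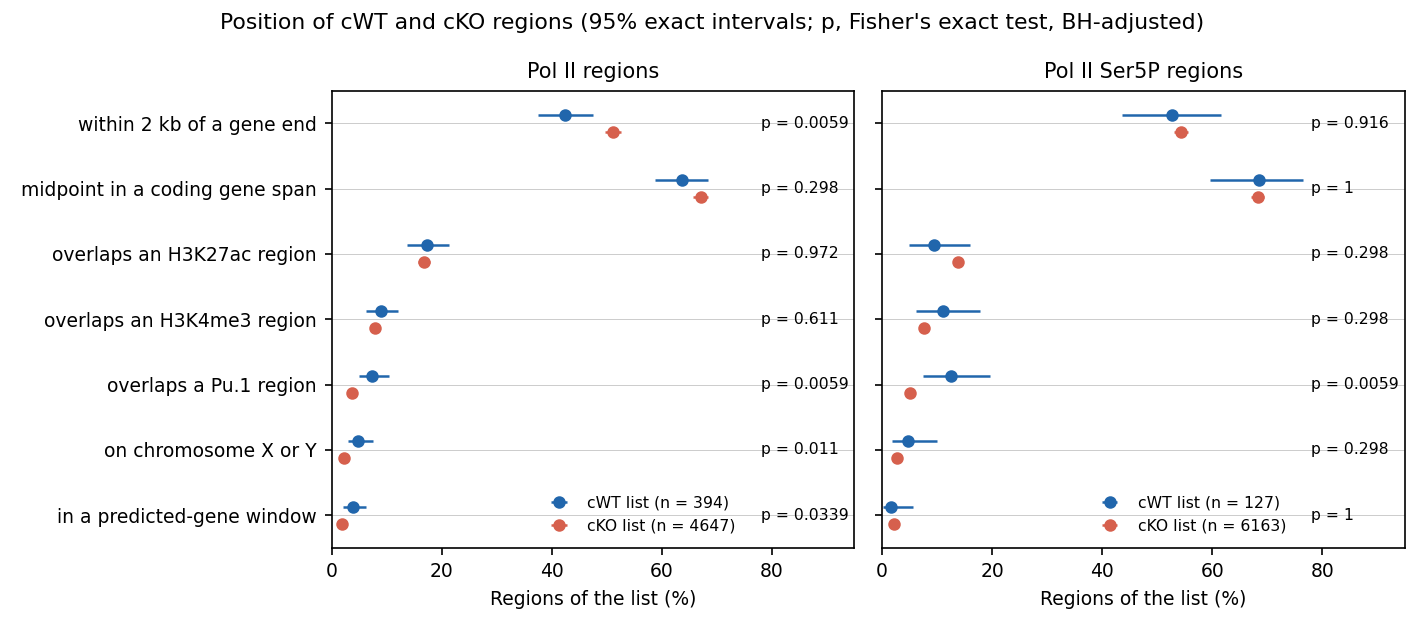
Points give the share of cWT and cKO regions (x axis, %) with each positional or chromatin feature, with 95% exact intervals and adjusted p from two-sided Fisher's exact tests over lists. Pu.1 overlap was higher in cWT for both antibodies, at 7.36% against 3.77% for Pol II and 12.6% against 5.03% for Ser5P.

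Around annotated starts, cWT-specific Pol II regions were a smaller share of their list and had a larger median offset into the gene. The promoter table covers 17492 coding genes and none on chromosome 18, and 378 of the 394 cWT Pol II regions were on chromosomes it covers. Of these, 139 (36.8%, 95% exact interval 31.9 to 41.9%) had their midpoint within 2 kb of a start, against 44.3% (42.8 to 45.8%) of cKO Pol II regions. Within 300 bp the shares were 25.7% in cWT and 34.5% in cKO. Beyond 10 kb from any start they were 52.1% in cWT and 45.2% in cKO. The median offset of those within 2 kb was 128 bp downstream in cWT (quartiles -13 and 277.5) and 74 bp in cKO (quartiles -83.25 and 185). For Ser5P, 43.1% of cWT and 46.4% of cKO regions were within 2 kb, with median offsets of 100 and 86 bp. The offsets were not tested, and the quartiles of the genotypes overlap widely. A site overlapped 1 promoter window in 100 cases and windows of 2 or more genes in 24, as at H2ac13 and H2bc13, a histone gene pair, Aida and Brox, and Psma2 and Mrpl32.

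**Figure D5:**
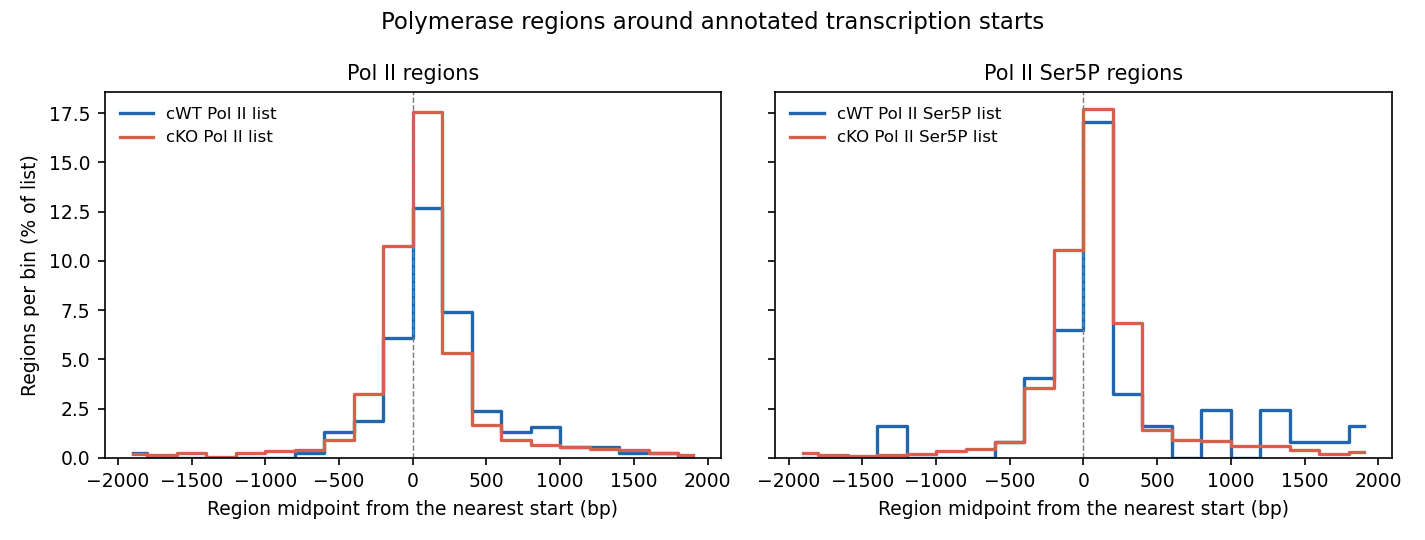
Lines give the share of each list (y axis, % of regions) by distance of the region midpoint from the nearest annotated start (x axis, bp, in bins of 200 bp, positive values downstream). Among midpoints within 2 kb of a start, those of cWT Pol II regions had a median of 128 bp downstream, against 74 bp for cKO Pol II regions.

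The positions of sites of Ser5P alone, of Pol II alone and of both are described here without a test. Of the 111 Ser5P-only sites, 63 (56.8%, 47.0 to 66.1%) were at coding gene ends, against 163 of 378 Pol II-only sites (43.1%, 38.1 to 48.3%) and 4 of the 16 found in both lists. A cKO polymerase region of either kind overlapped 26 of the Ser5P-only sites and 201 of the Pol II-only sites. No other list held a region over 65 of 111 Ser5P-only sites, over 125 of 378 Pol II-only sites and over 8 of 16 shared sites, which is 198 of all 505. Another 211 sites overlapped a region of 1 other list, 80 of 2, 15 of 3 and 1 of 4. The site with 4 was a Pol II site outside genes, 28118 bp from an end of Corin (chr5:72271697-72271962, signal 12.96), under cKO Pol II, cKO Ser5P, cWT H3K27ac and cKO Pu.1 regions. In all, 230 sites were at coding gene ends, 142 inside coding gene spans away from the ends and 133 outside both, and 75 overlapped a noncoding gene.

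Sites were crowded in 4 windows of 1 Mb, which held 29 of the 505. The window at 20 Mb of chromosome 8 held 10, at 9530057J20Rik, Gm15319, Gm21119 and Gm40469. The window at 15 Mb of chromosome 5 held 8, around Speer4c, Speer4d and predicted genes, and that at 5 Mb of chromosome 14 held 5. On chromosome Y, 6 sites lay between 90752002 and 90836740, nearest Gm52481, the gene assigned the most sites. Mid1, which encodes a ubiquitin ligase and crosses the pseudoautosomal boundary in C57BL/6 mice, followed with 4 sites, the outermost ending at chrX:169998275. These places hold near-identical gene copies, or sequence shared by the sex chromosomes, and no source states how reads with several matches were placed, so the assignments are uncertain. Chromosomes X and Y together held 4.82% of cWT and 2.22% of cKO Pol II regions (exact test, adjusted p = 0.011), and 4.72% of cWT and 2.64% of cKO Ser5P regions (adjusted p = 0.298). Windows of 1 Mb with at least 10 predicted genes held 3.81% of cWT and 1.81% of cKO Pol II regions (exact test, adjusted p = 0.0339), and 1.57% of cWT and 2.19% of cKO Ser5P regions (adjusted p = 1). Both Pol II calls were lost without regions under 300 bp, at 4.02% of cWT and 2.23% of cKO regions for X and Y and 2.23% of cWT and 1.43% of cKO regions for predicted-gene windows. Leaving out the 4 crowded windows lowers the cWT share by construction, since they were chosen for cWT sites. X and Y then held 4.07% of cWT and 2.14% of cKO Pol II regions (exact test, adjusted p = 0.0952), and predicted-gene windows 2.71% of cWT and 1.66% of cKO Pol II regions (adjusted p = 0.338).

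Assigning each site to the coding gene with the nearest end within 100 kb gave 437 genes, 2% of 21887, and left 34 sites unassigned. A cKO polymerase region was assigned to 25.8% of all coding genes and to 329 of the 437, 75.3% (95% exact interval 71.0 to 79.3%). Most genes, 412, had 1 cWT-specific site and 25 had more. Besides the windows above, Hivep2, which encodes a zinc-finger factor, had 3 Pol II sites in its span between 13965622 and 13988464 of chromosome 10. A pair of these abutted with the same signal of 9.55, as at Fmc1 and near Chtf8, so they mark 2 separate places. The cKO lists had 3 Pol II and 2 Ser5P regions assigned to Hivep2, but no cKO polymerase region overlapped these cWT sites. Chd7 (a chromatin remodeller), Tiam1 (a Rac exchange factor), Zmiz1, Disc1, Sipa1l2, Sdf4 and Zfp827 had 2 Pol II sites each. B4galt5 and Jun had 2 Ser5P sites, and Ccl4 and Ttc7 had 1 of each.

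Myeloid transcription factors held the most listed members, 8 of 26, against the background of 2%. Ser5P sites were assigned to Spi1, which encodes Pu.1 (chr2:91111854-91112163, 3750 bp from the gene end), Runx1 (74164 bp from the gene end), Jun and Klf6. Pol II sites were assigned to Cebpd, Klf4, Ets2 and Smad3. The Cebpd site (chr16:15890349-15890693) was 976 bp from a gene end and the Smad3 site 17372 bp. The list was chosen with earlier results known and includes Jun and Klf genes, so its count is a description. With gene ends within 10 kb the count was 6. It was 7 where the gene span had to hold the midpoint and 7 with all genes of the table. The cKO polymerase lists held 21 of the same 26, against their background of 25.8%, and these included all 8. Immediate early and dissociation genes had 4 of 20: Jun, Egr2 (a Pol II site 71 bp after a start), Btg2 and Hspa1a, against 15 in the cKO lists. All 4 are known to respond within minutes to hours to stimulation or stress of cells.

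The remaining lists had at most 2 members each at cWT-specific sites, and these small counts were not tested against the background of 2% of coding genes. Each is given beside its cKO count, for which the background was 25.8%. Homeostatic microglia genes had 2 of 30, Ltc4s and Gpr34, a lysophosphatidylserine receptor gene (chrX:13618560-13618932, signal 8.73), against 20 in the cKO lists. Cytokine and NF-kB genes had 2 of 34, Nlrp3 and Ccl4, against 22 in the cKO lists. The Ccl4 sites lay at either end of its annotated span. The midpoint of the Pol II site (chr11:83648402-83648912, signal 18.8) lay in the annotated spans of both Ccl4 and the chemokine gene Ccl3, 721 bp after a start of Ccl3. Where the gene span had to hold the midpoint, the cytokine list had 3 members. Phagocytosis and lysosome genes had 2 of 30, Ctsb (a cathepsin) and Npc1, against 16, and disease-associated microglia genes had 2 of 30, Tyrobp and Ctsb, against 12. Ribosomal protein genes had Rpl4 and Rps7, 2 of 30, against 17, and the Pol II machinery had Polr2i, 1 of 35, against 13. Among microRNA processing genes Tut4, a uridylyltransferase, was 1 of 14, against 11 in the cKO lists. Among reported miR-137 targets Cdk6, a cell-cycle kinase, was 1 of 20, against 9, with its Pol II site 22568 bp from the gene end. Interferon response genes had 0 of 28, against 8 in the cKO lists.

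Mir137 itself (chr3:118433857-118433929) had no cWT-specific polymerase site nearby. The nearest Pol II region was 1626 kb away, at chr3:116808072-116808327, and the nearest Ser5P region was 2426 kb away. The sites therefore give no check of the deletion. Markers of neurons, astrocytes, oligodendrocytes, vascular cells, border macrophages, lymphocytes and neutrophils, 64 in 6 lists, had 0 members at a cWT-specific polymerase site, where the background is 2% of coding genes, so a list of this size could show few. A cKO polymerase region was assigned to 12 of the 64 (18.75%, against 25.8% of all coding genes), and 18 had a region in at least 1 of the 10 lists. The marker lists differed, with 5 of 10 for vascular cells and 0 of 12 for neurons in the cKO polymerase lists. Astrocytes, oligodendrocytes and border macrophages had 2 of 10 each, and lymphocytes and neutrophils 1 of 12. The lists therefore do not show whether other cell types were present. Of the 30 homeostatic microglia genes, 28 had a region in at least 1 of the 10 lists.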

How the data were processed

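The titles of the 30 samples give 10 groups, 1 for each genotype and antibody, with 3 replicates in each, and the data used were 10 deposited lists of genotype-specific regions with no value per replicate. HOMER 4.11, bedtools 2.30.0, MACS2 2.2.7.1 and Bowtie2 2.4.4 are named without roles, with mm10 (GRCm38), per the submitters' processing notes. The sources used here do not say what made a region specific or how replicates were joined. Per the files, each deposited region has the authors' score (up to 1000), signal (unstated scale), p-value and adjusted p-value (q-value). These were used only to describe or rank regions within a list. Depth is unknown, so exact Clopper-Pearson intervals (95%) cover the counting of regions only.

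Overlap means at least 1 shared base. Coding genes (21887) came from a RefSeq table of GRCm38.p6 that gives gene ends without strand. Starts and promoter sequences (250 bases before, 50 after) came from RefSeq for 17492 of them, and exons were not annotated. The planned comparison used gene ends, and starts were added as an alternative. Two-sided Fisher's exact tests compared shares of the cWT and cKO lists, with Benjamini-Hochberg adjustment over 14 comparisons. All 349 symbols of the 17 gene lists matched. The members and lists were chosen with earlier results of these data known.

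The text names Mir137 and Spi1, sites in both cWT lists, regions with an adjusted p under 0.05 and up to 4 members per gene list. It names only part of 3 further planned sets. These are the 10 regions of highest signal and of smallest p in each list, genes with 2 or more sites, and sites under regions of other lists. Other names, among them H2ac13, the remaining myeloid factors and the promoters printed, were chosen after their values were seen. Overlap counts were checked on simulated regions against bedtools 2.31.1. Python 3.11.15, numpy 2.4.6, pandas 2.3.3, scipy 1.17.1 and matplotlib 3.10.9 were used.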

Additional observations from a re-analysis of the deposited data

How the results depend on the processing

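No paired analysis was possible because the lists hold no value per replicate, and for the same reason no replicate could be left out. Differences in share below are cWT minus cKO, in percentage points. The Pu.1 differences kept their direction and an adjusted p under 0.05 in each alternative run. With regions under 300 bp left out, the Pol II differences missed the threshold for gene ends (-5.73), chromosomes X and Y (1.79) and predicted-gene windows (0.798), and the Ser5P differences, never past it, changed sign for gene spans (-3.68) and predicted-gene windows (1.09). In the 50% of each list with the smaller deposited p, the Pol II differences for X and Y (2.07) and predicted-gene windows (0.731) missed the threshold and that of Ser5P for gene spans was -4.08. Without the 4 windows of at least 5 cWT sites, an alternative added after the data were seen that lowers cWT counts by construction, Pol II missed it for gene ends (-6.83), X and Y (1.93) and predicted-gene windows (1.05). Signs then changed for H3K27ac with Pol II (-0.0661), gene ends with Ser5P (0.184) and X and Y with Ser5P (-0.0594), none past the threshold before or after. The cause of these shifts was not tested.

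When an overlap needed 50% of the shorter region, 59.9% of cWT Pol II and 31.5% of cWT Ser5P regions overlapped any of the other 8 lists, against 65.7% and 42.5% as reported, and no overlap between genotypes of the same antibody was left. Within 1 kb the shares were 73.9% and 58.3%, and 53.6% of cWT Pol II regions were near a cKO Ser5P region. Regions of at least 300 bp gave 285 sites with 8 in both lists, and the 50% with smaller p gave 252 with 9. Over the promoters of every assigned gene, the GC box share was 57.0% and the C/EBP share 0%. Counts of gene list members also moved. Homeostatic genes had 0 in place of 2 when the gene span had to hold the midpoint. Reported miR-137 targets had 0 in place of 1 with gene ends within 10 kb and with all genes of the table. Disease-associated genes had 1 in place of 2 under those 3 settings. The 437 assigned genes became 304 with gene ends within 10 kb and 323 where the gene span had to hold the midpoint. With all genes of the table they became 481. Of the other alternatives, 97 main and 107 secondary values stayed within the set limits, which were wide enough to take in these gene counts. The unknown depth and the single list per genotype limit each statement to these lists.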

Other observations

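Among the noncoding genes that overlapped a site was Mir8112, at a Ser5P site over the start of Krcc1 (chr6:71271618-71271994). The sites were most numerous on chromosome 8, with 43 of 505 (8.51%), which held 8.63% of cWT and 5.40% of cKO Pol II regions and 7.87% of cWT and 5.19% of cKO Ser5P regions. Without the crowded windows chromosome 8 held 33 sites and chromosome 2, with 40, held the most. Chromosome 2 held 12.6% of the cWT Ser5P regions, against 7.496% of the cKO Ser5P regions. These shares by chromosome were not tested.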
